A study of Mus musculus with 11 samples.

Results

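The genes described here encode dehydrogenases and reductases that act on aldehydes, carbonyl compounds, retinoids and steroids. Members were the probe sets paired with 1 gene whose symbol begins with Aldh, Adh and a digit, Akr, Cbr and a digit, Hsd11, Hsd17, Hsd3, Rdh or Dhrs, or is Retsat, with Hsd17b4 and Hsd17b12 left out. This gave 65 of 12422 probe sets, covering 50 genes. Their signal was measured in total RNA of 3T3-L1 cells, a clonal mouse fibroblast line that can be turned into adipocytes, on 11 one-colour oligonucleotide arrays. Cells were held for 24 h in DMSO vehicle (0.1%) on 3 arrays, in pioglitazone at 20 µM on 2, in rosiglitazone at 1 µM on 3 and in troglitazone at 20 µM on 3. Titles place replicates 1 and 2 of every group in set 1 (8 arrays) and replicate 4 of vehicle, rosiglitazone and troglitazone in set 2 (3 arrays), so pioglitazone has no array in set 2. The labels say neither whether the cells had been differentiated nor whether replicates were separate cultures, and p-values measure only the spread between these samples.

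Most oxidoreductases of these families move hydride between NAD(P)(H) and an alcohol, aldehyde or ketone, while Retsat saturates retinol. Aldehyde dehydrogenases oxidise aldehydes to acids, including retinal to the nuclear receptor ligand retinoic acid, while aldo-keto and carbonyl reductases turn reactive carbonyls and quinones into alcohols. Retinol dehydrogenases interconvert retinol and retinal, and hydroxysteroid dehydrogenases switch steroid hormones between active and inactive forms, as Hsd11b1 does for glucocorticoid in fat. The 3 drugs are thiazolidinediones, ligands of PPARγ, the nuclear receptor that drives adipocyte differentiation.

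Cbr3 and Retsat rose with each of the 3 drugs, and Akr7a5 fell with rosiglitazone. These were the members that passed the test, limma with an adjusted p under 0.05 by the Benjamini-Hochberg method over all 11739 tested probe sets. The 250 bases before the annotated start of each of these 3 genes are shown because these are the genes that passed. They come from RefSeq, build GRCm38.p6, plus strand: Cbr3 at chr16:93682969-93683218, Retsat at chr6:72598352-72598601 and Akr7a5 at chr4:139310494-139310743. Capitals mark matches to the motifs named below.
Cbr3: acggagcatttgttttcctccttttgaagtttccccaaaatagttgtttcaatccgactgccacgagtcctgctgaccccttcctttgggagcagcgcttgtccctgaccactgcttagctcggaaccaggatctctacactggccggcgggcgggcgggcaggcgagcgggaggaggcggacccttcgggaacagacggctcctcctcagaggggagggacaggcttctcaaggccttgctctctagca
Retsat: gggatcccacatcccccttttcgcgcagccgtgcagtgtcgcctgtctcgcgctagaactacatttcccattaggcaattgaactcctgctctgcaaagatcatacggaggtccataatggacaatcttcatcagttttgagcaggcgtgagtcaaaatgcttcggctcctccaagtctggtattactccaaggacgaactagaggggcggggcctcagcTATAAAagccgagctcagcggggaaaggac
Akr7a5: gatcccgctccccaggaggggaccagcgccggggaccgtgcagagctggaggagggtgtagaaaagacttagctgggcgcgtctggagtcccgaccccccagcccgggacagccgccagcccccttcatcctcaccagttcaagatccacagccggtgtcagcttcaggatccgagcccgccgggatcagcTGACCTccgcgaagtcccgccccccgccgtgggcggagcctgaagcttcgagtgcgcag
Searched on both strands were AGGTCA, the core site of many nuclear receptors; a direct repeat of AGGTCA with 1 free base between the copies, bound by PPARγ with its partner RXR and so always holding the first motif; and TATAAA, the TATA box. AGGTCA occurred in 14.0% of 32851 such windows, the direct repeat in 0.0335% and TATAAA in 12.4%. Akr7a5 held AGGTCA on the minus strand, printed as TGACCT, from 59 to 54 bases before the start. Retsat held TATAAA from 30 to 25 bases before the start, and the Cbr3 window held none of the 3. Of the 50 member genes, 41 had an entry, with 48 windows; 5 windows held AGGTCA, 0 the direct repeat and 7 TATAAA. A match describes letters and no site.

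Signals are the deposited intensities, in arbitrary units, and those of different probe sets cannot be compared as amounts. Values below 73.7, the 25th percentile of all values, were raised to that floor before base 2 logarithms were taken. Of the 65 members, 35 lay above the floor on all 11 arrays, 26 on 2 to 10 arrays and 4 on 1 array only. Those 4, probe sets for Adh4, Aldh18a1, Aldh7a1 and Dhrs7b, were not tested; each of these genes had another probe set among the 61 members tested, which cover all 50 genes. Vehicle means exceeded 1000 for 22 members, with a median of 264.8 over all 65. The residual SD of log2 signal had a median of 0.299 in the 35 members above the floor throughout and 0.608 in the 26 others tested, so changes of the dimmer members were measured less precisely.

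The labelled line was checked against marker genes. All 10 adipocyte markers on the array, of 12 listed, lay above the floor on every vehicle array, and their summed signal overlapped between vehicle (106000 to 132100) and each drug (90930 to 146900 over the 8 drug arrays). That sum rests on a few bright genes, and among the 10 markers Cidec rose and Pparg fell with each drug, and Retn fell with rosiglitazone and troglitazone. All 8 preadipocyte or fibroblast markers were also above the floor, but their sum was lower on every drug array: 10420 to 11940 with vehicle, 5020 to 6516 with pioglitazone, 6848 to 7356 with rosiglitazone and 5360 to 6485 with troglitazone. Of these 8, Fn1 alone passed with pioglitazone and with rosiglitazone, and Fn1, Col1a1 and Col3a1 with troglitazone, each lower. The part of these 8 markers in the results below was not tested. In bulk RNA, fewer cells of a type cannot be told apart from less RNA per cell. Of other cell types' markers, 0 of 5 measured hepatocyte genes, 1 of 5 endothelial, 2 of 7 macrophage, 4 of 5 skeletal muscle and 2 of 4 steroid-making cell genes were above the floor on every vehicle array. Among hepatocyte genes, markers of a tissue rich in these enzymes, Alb, Apoa2, Ttr and Tat exceeded the floor on 7 to 10 of the 11 arrays and Fgb on 0. Above the floor on all 11 were Myog (668 ± 63.1 SD with vehicle, n = 3), Myod1, Des, Csf1r and Cd14. So was the steroid-making cell gene Cyp21a1 (898.5 ± 31.2 SD with vehicle, n = 3). Cd14 fell with troglitazone, and the part of these markers in the results was not tested either. Array-wide, the 3' to 5' actin ratio was 1.79 to 2.27 in set 1 except 4.86 on pioglitazone replicate 2, and 3.74 to 3.9 in set 2. Rosiglitazone replicate 2 had the lowest median correlation with the other arrays, 0.833 against up to 0.896. These 2 arrays are called the arrays that stand apart, and results without them are given where a call depends on them.

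Against vehicle, pioglitazone raised 2 of 61 tested members (3.28%), and lowered 0, while of all 11739 probe sets 0.63% were higher and 0.273% lower (0.903% in all). In limma 11 members (18% of those tested) had an unadjusted p under 0.05, against 9.85% of all probe sets. Rosiglitazone raised 2 and lowered 1 (4.92% of members), against 0.784% higher and 0.571% lower of all probe sets (1.35%). Here 14 members (23%) had an unadjusted p under 0.05, against 10.5% of all. Troglitazone raised 2 and lowered 0 (3.28%), against 0.775% higher and 0.554% lower of all (1.33%), and 13 members (21.3%) had an unadjusted p under 0.05, against 8.32% of all. Passing members therefore amounted to 2 or 3 probe sets in each comparison, and the remaining 58 or 59 did not pass. The comparisons share the vehicle arrays and are given side by side, not as repeats of each other. Where groups are said below not to overlap, that describes the arrays and is not a test. The share of all probe sets without overlap was not counted, and small groups can separate with almost no difference. Adh5 on 95765_at did not overlap vehicle with pioglitazone at a fitted log2 difference of -0.01. The median log2 difference over members was -0.03 with pioglitazone, 0.20 with rosiglitazone and 0.03 with troglitazone, beside -0.08, 0.00 and -0.03 over all probe sets. Centring the arrays on their medians moved the pioglitazone median of all probe sets from -0.08 to 0.06 and that of the members to 0.14.

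**Figure D1:**
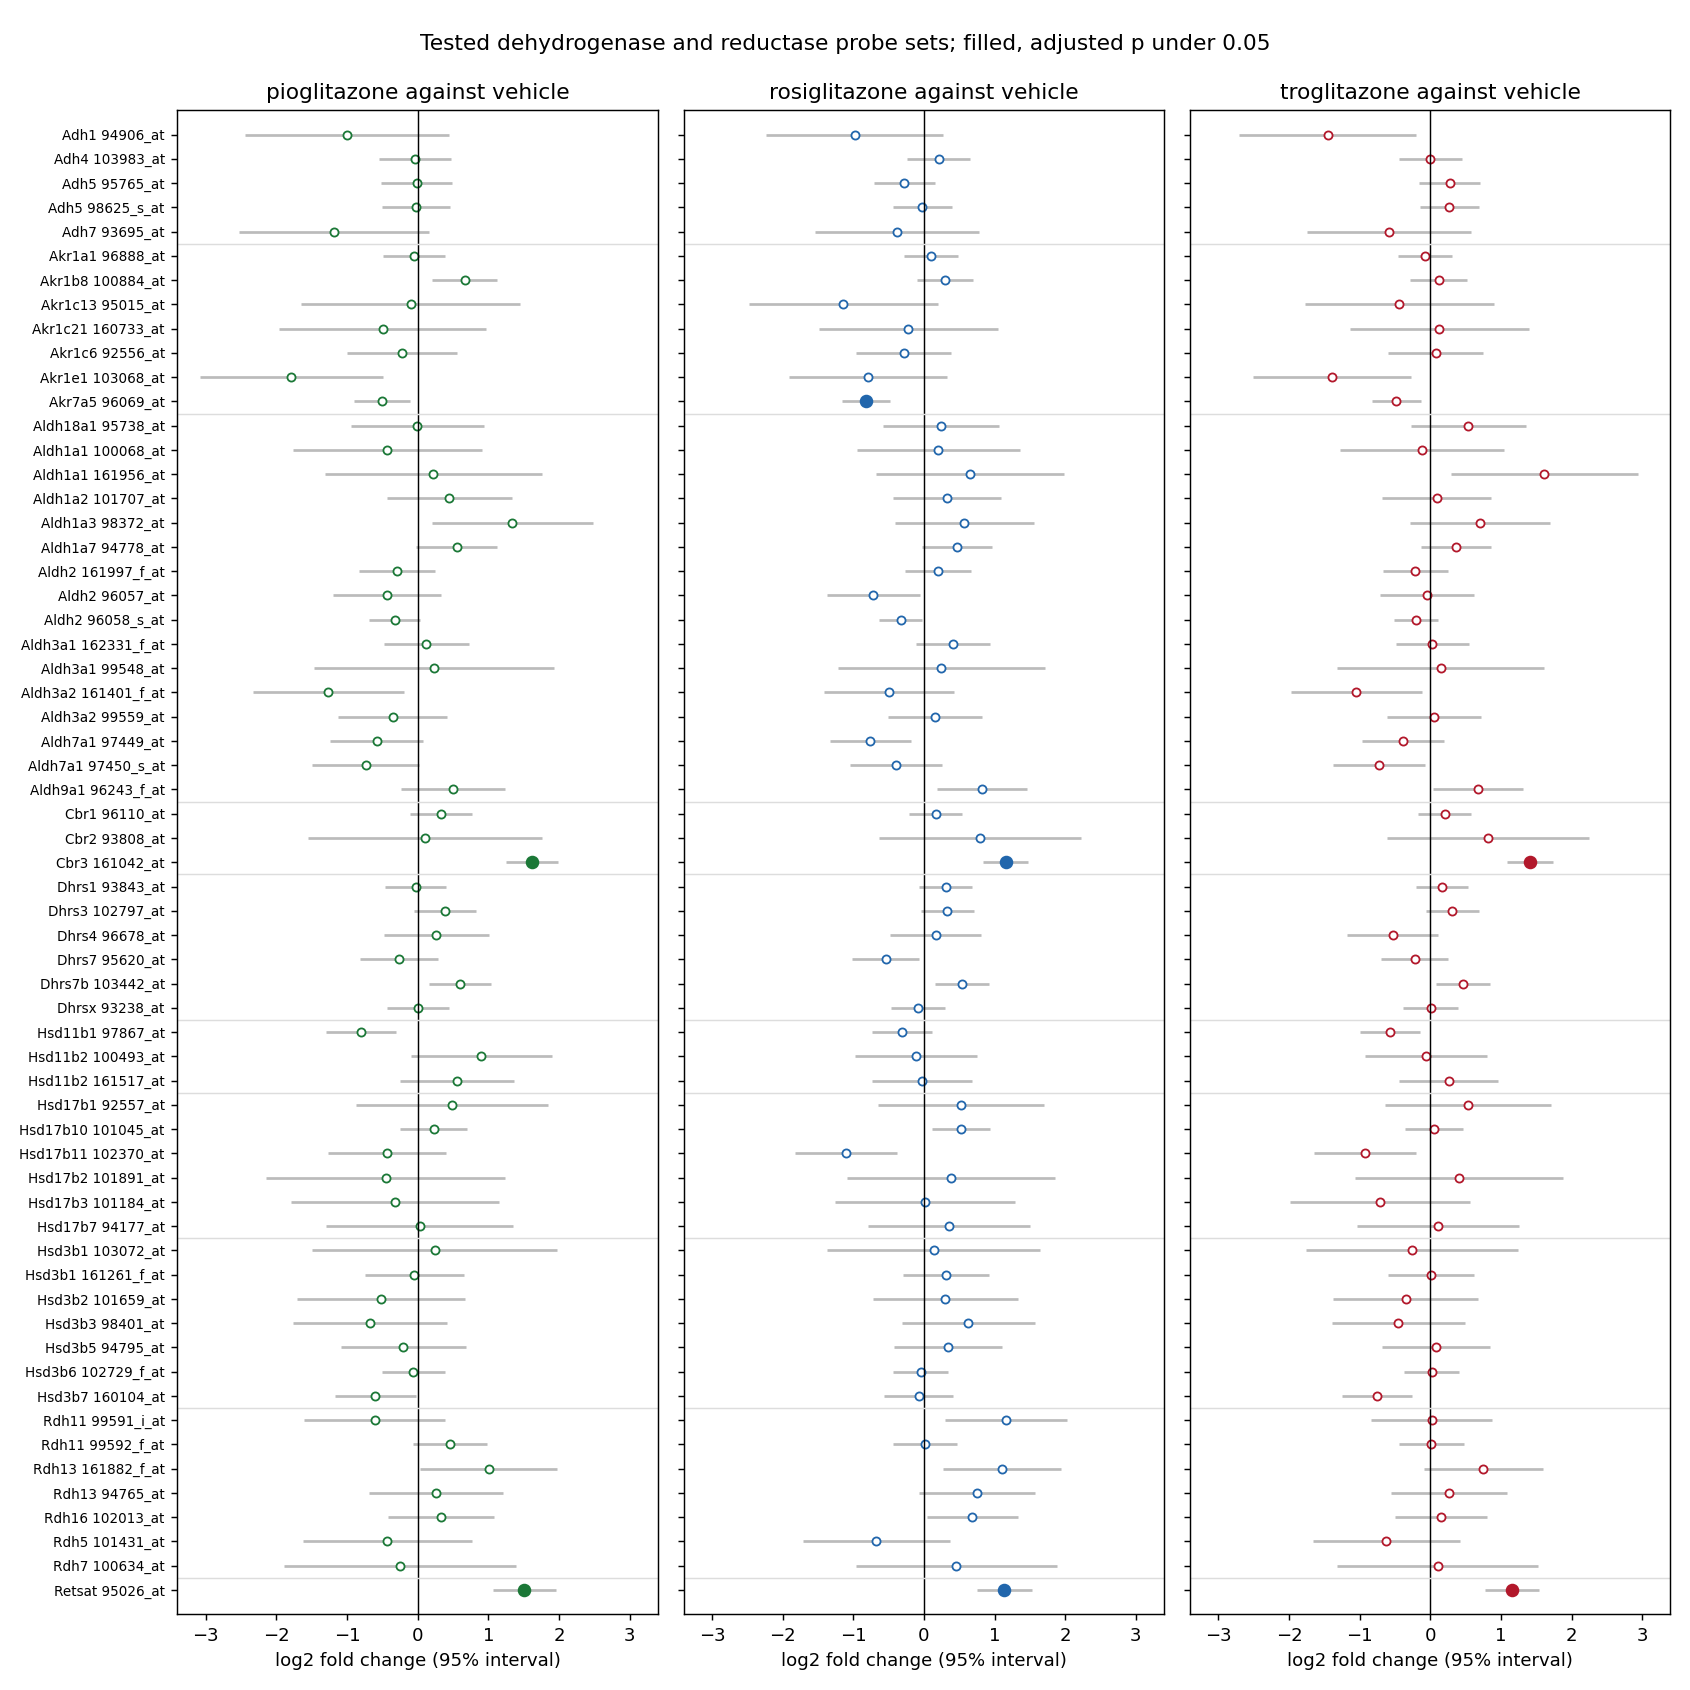
Log2 difference from vehicle with its 95% interval (x axis) for the 61 tested member probe sets (y axis), in 1 panel per drug; filled points passed an adjusted p of 0.05. Cbr3 and Retsat are filled in all 3 panels and Akr7a5 with rosiglitazone, while most other intervals reach 0.

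The carbonyl reductases act on ketones and quinones with NADPH, and Cbr3 was the member with the smallest p in each drug comparison. Cbr3 (161042_at) had signals of 1669.6, 1520.7 and 2076.9 on vehicle replicates 1, 2 and 4. With pioglitazone it read 5034.4 and 4219.2. It read 2933.1, 3427.2 and 5804.9 with rosiglitazone and 3843.3, 4133.5 and 6274.1 with troglitazone. Every drug array lay above every vehicle array, and replicate 4 was the highest array within vehicle, rosiglitazone and troglitazone. Cbr3 rose 3.07-fold with pioglitazone (log2 1.62 ± 0.17 SE; limma adjusted p = 0.000199), 2.23-fold with rosiglitazone (1.16 ± 0.15; 0.000791) and 2.66-fold with troglitazone (1.41 ± 0.15; 8.81e-05). Set 2 was higher than set 1 by 0.64 ± 0.13 (log2, SE; limma adjusted p = 0.00905). Within set 1 the log2 differences from vehicle were 1.53, 0.99 and 1.32 for the 3 drugs in that order, and within set 2 they were 1.48 for rosiglitazone and 1.59 for troglitazone. Without the set term the pioglitazone and rosiglitazone calls ended (adjusted p = 0.0671 and 0.0923), as did all 3 without the intensity trend (0.143, 0.134 and 0.0589). The pioglitazone call also ended when only the groups compared were fitted (0.0995), and the rosiglitazone call in set 1 alone (0.0738), with the direction higher in each of these fits.

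Cbr1, the neighbour of Cbr3 on chromosome 16 and its close relative, did not pass with any drug. Its probe set (96110_at) read 3728.1, 4232.7 and 4630.6 with vehicle and 4981.3 and 4403.1 with pioglitazone. It read 5154.8, 3186.7 and 6281.6 with rosiglitazone and 4503.2, 3812.3 and 6534.8 with troglitazone. Vehicle and drug arrays overlapped for all 3 drugs, and the log2 differences were 0.33 ± 0.20, 0.17 ± 0.18 and 0.21 ± 0.18 (SE; adjusted p = 0.661, 0.790 and 0.872). The log2 ratio of the Cbr3 to the Cbr1 signal was -1.48 to -1.16 on vehicle arrays and -0.81 to 0.12 on drug arrays, with no overlap. This ratio was examined after these values were seen, so it is given as a description without a p-value. Cbr2, the remaining carbonyl reductase, did not pass with any drug.

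**Figure D2:**
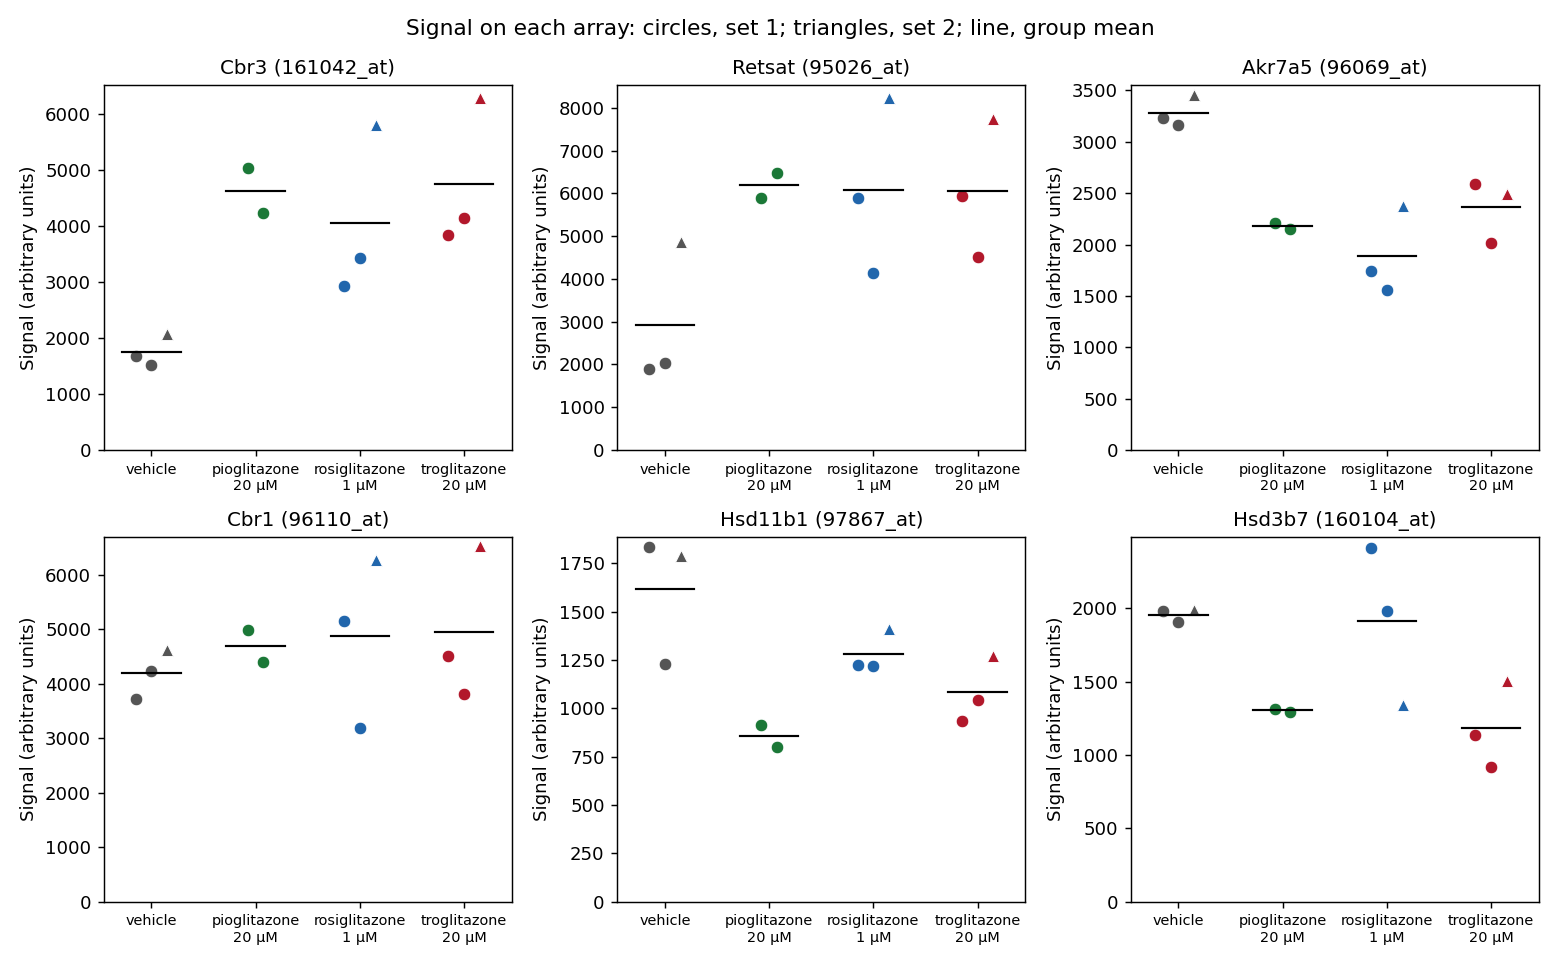
Signal per array (y axis, linear, arbitrary units) in the 4 groups (x axis) for Cbr3, Retsat, Akr7a5, Cbr1, Hsd11b1 and Hsd3b7; circles are set 1, triangles set 2 and bars group means. All 8 drug arrays of Cbr3 lie above its vehicle arrays, the set 2 vehicle array of Retsat (4859.7) lies among its drug arrays, and all 8 drug arrays of Akr7a5 lie below vehicle.

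Among retinoid enzymes, Retsat, which saturates retinol to dihydroretinol, rose with all 3 drugs. Its probe set (95026_at) read 1903.3 and 2030.2 on the set 1 vehicle arrays and 4859.7 on the set 2 vehicle array. Pioglitazone gave 5897.9 and 6480.5. Signals were 5888.6, 4148.2 and 8216.8 with rosiglitazone and 5936.7, 4514.1 and 7728.1 with troglitazone. The pioglitazone arrays lay above all vehicle arrays, while replicate 2 of rosiglitazone and of troglitazone lay below vehicle replicate 4, so those groups overlapped vehicle. The rise was 2.85-fold with pioglitazone (log2 1.51 ± 0.21 SE; limma adjusted p = 0.00153), 2.20-fold with rosiglitazone (1.14 ± 0.18; 0.00349) and 2.23-fold with troglitazone (1.15 ± 0.18; 0.00255). Set 2 was higher by 0.87 ± 0.16 (log2, SE; adjusted p = 0.00356). Against the vehicle of their own set, no drug array overlapped it, with log2 differences in set 1 of 1.65, 1.33 and 1.40 for pioglitazone, rosiglitazone and troglitazone and in set 2 of 0.76 for rosiglitazone and 0.67 for troglitazone. The 3 calls ended without the set term (adjusted p = 0.364, 0.263 and 0.242) and without the intensity trend (0.229, 0.182 and 0.193), and the pioglitazone call also when only the groups compared were fitted (0.0751). The direction stayed higher in each of these fits.

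The other retinoid-acting members did not pass in any comparison. Rdh11, a retinal reductase of the endoplasmic reticulum, had 2 probe sets that disagreed. Probe set 99591_i_at read 394.6, 392.4 and 917.9 with vehicle and 1789.9, 991.6 and 893.4 with rosiglitazone, a log2 difference of 1.16 ± 0.40 (SE; adjusted p = 0.262) with overlapping groups. Probe set 99592_f_at, the brighter, differed by 0.01 ± 0.21 (adjusted p = 0.996). The suffixes i and f mark probe sets whose probes are fewer or shared with related transcripts. Rdh13, a mitochondrial relative, read 124.3 to 373.7 with vehicle on 161882_f_at. Rosiglitazone gave 487.1 to 530.3 and pioglitazone 524 and 587.8, both without overlap, while troglitazone overlapped vehicle. The log2 differences were 1.01 ± 0.45 with pioglitazone, 1.10 ± 0.39 with rosiglitazone and 0.75 ± 0.39 with troglitazone (SE, limma adjusted p = 0.478, 0.279 and 0.677). On its other probe set, 94765_at, all 3 drugs overlapped vehicle. The differences there were 0.26, 0.75 ± 0.39 (adjusted p = 0.538) and 0.26 in that order.

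The Dhrs enzymes are short-chain reductases of retinal and other carbonyls, and 0 of 6 tested probe sets passed with any drug. Dhrs7b, which takes part in ether lipid synthesis in peroxisomes, was the brightest. Its probe set 103442_at read 2266.1, 1985.2 and 2445.9 with vehicle and 2498.4 and 3803 with pioglitazone. It read 3201.4, 2473.3 and 4285.8 with rosiglitazone and 2955.2, 2692 and 3630.5 with troglitazone. All 8 drug arrays lay above the 3 vehicle arrays, with log2 differences of 0.60 ± 0.21, 0.54 ± 0.18 and 0.46 ± 0.18 (SE), and adjusted p was 0.270, 0.232 and 0.415. Dhrsx, the next in brightness, differed from vehicle by 0.01, -0.09 and 0.00.

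Aldo-keto reductases reduce sugars, lipid aldehydes and steroids, and 1 of 7 tested probe sets passed, Akr7a5 with rosiglitazone. Akr7a5, a reductase of reactive aldehydes including succinic semialdehyde, read 3233.4, 3159.5 and 3459.3 with vehicle (96069_at). Pioglitazone gave 2208.3 and 2147.5. Signals were 1741.1, 1562.6 and 2373.9 with rosiglitazone and 2592.7, 2018.4 and 2494.3 with troglitazone. All 8 drug arrays lay below the 3 vehicle arrays. It fell 1.76-fold with rosiglitazone (log2 -0.82 ± 0.16 SE; limma adjusted p = 0.0178), and the log2 differences with pioglitazone and troglitazone, -0.51 ± 0.19 and -0.48 ± 0.16, did not pass (0.321 and 0.277). The rosiglitazone call ended when any of the vehicle arrays was left out (adjusted p = 0.0957, 0.0935 and 0.0642 without replicates 1, 2 and 4) or without rosiglitazone replicate 1 or 2 (0.0662 and 0.0816). It also ended without the arrays that stand apart (0.0680), the set term (0.170) or the intensity trend (0.268) and in set 1 alone (0.106); within sets the log2 difference was -0.95 in set 1 and -0.54 in set 2.

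Akr1a1, the general aldehyde reductase, was the brightest member (7395 ± 908 SD with vehicle, n = 3) and differed from vehicle by -0.05, 0.09 and -0.08 (log2) with pioglitazone, rosiglitazone and troglitazone. Their 95% intervals ran from -0.49 to 0.47 over the 3 drugs, so a change beyond about that size was outside the interval for each. Akr1b8, an aldose reductase relative induced by fibroblast growth factor, read 2502.4, 2107.1 and 2648.4 with vehicle and 4355.4 and 2903.7 with pioglitazone. Those groups did not overlap, and the difference of 0.66 ± 0.22 (log2, SE; adjusted p = 0.236) did not pass. Akr1e1, an anhydrofructose reductase, had the lowest log2 difference of its family with pioglitazone, -1.79 ± 0.61 (SE; adjusted p = 0.259). It read 312.1, 317.6 and 99.7 with vehicle and 52.7 and 78.2 with pioglitazone, so 1 of the pioglitazone arrays was under the floor.

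Of the aldehyde dehydrogenases, 16 probe sets for 10 genes were tested and 0 passed with any drug; the family's log2 differences ran from -1.26 to 1.34 with pioglitazone, -0.76 to 0.82 with rosiglitazone and -1.04 to 1.62 with troglitazone. Aldh2, the mitochondrial enzyme that clears acetaldehyde, was the brightest. Its probe set 96058_s_at read 7051.8, 6815.3 and 7319.9 with vehicle and 5074.4 and 5343.9 with pioglitazone. The groups did not overlap, and the log2 difference of -0.33 ± 0.17 (SE; adjusted p = 0.562) did not pass. Its other probe sets gave -0.44 (96057_at) and -0.29 (161997_f_at) with pioglitazone, but -0.72 and 0.20 with rosiglitazone. Aldh1a7, a cytosolic relative of the retinal dehydrogenases, averaged 2113 ± 585 (SD, n = 3) with vehicle and differed by 0.55, 0.47 and 0.37 (log2), each with overlapping groups. Aldh9a1, which oxidises an aldehyde on the route to carnitine, was measured on 96243_f_at, a probe set with the suffix f explained above. It read 735.1 to 1063.1 with vehicle, 1171.9 to 2040.6 with rosiglitazone and 1162.4 to 1902.8 with troglitazone. Neither of these drugs overlapped vehicle. The log2 differences were 0.82 ± 0.30 and 0.68 ± 0.30 (SE, limma adjusted p = 0.293 and 0.546). With pioglitazone (743 and 1711.8) the groups overlapped.

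The retinoic acid producing enzymes Aldh1a1 and Aldh1a3 were dim. Aldh1a3 (98372_at) read 81, 58.1 and 42.7 with vehicle, under the floor on replicates 2 and 4, and 231.3 and 192.6 with pioglitazone. The floor limits that difference, which was 1.34 ± 0.54 (log2, SE, limma adjusted p = 0.389). With rosiglitazone Aldh1a3 read 124.6, 102.6 and 113.2, also without overlap (0.57 ± 0.46, adjusted p = 0.708). With troglitazone it overlapped vehicle. For Aldh1a1, probe set 161956_at read 101.6, 73.1 and 208.2 with vehicle and 486.8, 451.8 and 204 with troglitazone. Both set 1 troglitazone arrays were above all vehicle arrays and the set 2 array was not; the log2 difference was 1.62 ± 0.62 (SE; adjusted p = 0.412), beside -0.12 ± 0.54 on 100068_at (adjusted p = 1). Aldh3a2, the fatty aldehyde dehydrogenase, also split. Probe set 161401_f_at read 32.6 and 36.7 with pioglitazone, both under the floor, against 141.1 to 208.7 with vehicle. On 99559_at the same groups overlapped (361.6 and 661.8 against 363.8 to 731.4). With troglitazone 161401_f_at read 55.7, 40 and 116.3, also below all vehicle arrays, and with rosiglitazone it overlapped vehicle. On 99559_at both of these drugs overlapped vehicle. Across the 10 genes with several tested probe sets, all probe sets of a gene had the same sign for 7 genes with pioglitazone, 8 with rosiglitazone and 6 with troglitazone.

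**Figure D3:**
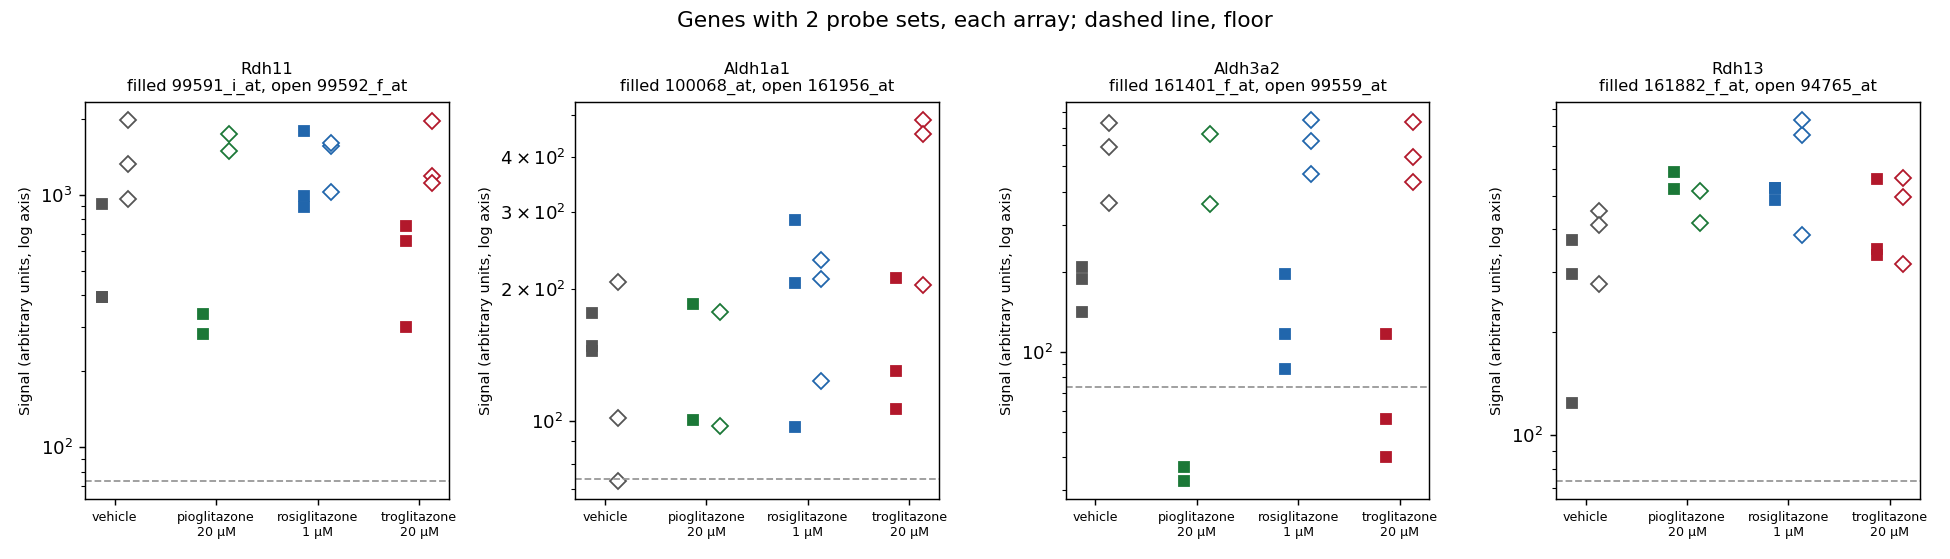
Signal per array (y axis, log scale, arbitrary units) by group for the separate probe sets of Rdh11, Aldh1a1, Aldh3a2 and Rdh13; the dashed line is the floor of 73.7. Probe sets of a gene can differ, as for Aldh3a2 with pioglitazone, where 161401_f_at lies under the floor and 99559_at overlaps vehicle.

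The alcohol dehydrogenases oxidise ethanol, retinol and formaldehyde adducts, and 0 of 5 tested probe sets passed with any drug. Adh5, the formaldehyde dehydrogenase, was the brightest, and its probe sets gave -0.01 and -0.02 (log2) with pioglitazone, -0.28 and -0.03 with rosiglitazone and 0.27 and 0.27 with troglitazone. On 98625_s_at it was higher in set 2 by 0.87 ± 0.17 (log2, SE; limma adjusted p = 0.00657). With Cbr3 and Retsat this made 3 of the 61 tested members that differed between the sets. Of all 11739 tested probe sets 632 did, a similar share. Adh7, a retinol-oxidising form, differed from vehicle by -1.18 ± 0.63 with pioglitazone (log2, SE; adjusted p = 0.586), with overlapping groups.

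Of the hydroxysteroid dehydrogenases, 16 probe sets were tested and 0 passed with any drug. Hsd11b1, which regenerates active glucocorticoid, read 1836.5, 1228.8 and 1785.8 with vehicle and 914.9 and 802.7 with pioglitazone. It read 1225, 1217.4 and 1408.4 with rosiglitazone and 935.9, 1044.5 and 1268.7 with troglitazone. The pioglitazone arrays lay below all vehicle arrays and the other drugs overlapped vehicle; the log2 differences were -0.80 ± 0.23, -0.31 ± 0.20 and -0.57 ± 0.20 (SE; adjusted p = 0.161, 0.635 and 0.328). Hsd11b2, which inactivates glucocorticoid, was near the floor (100 ± 51.9 SD, n = 3, on 100493_at with vehicle), and its log2 differences were 0.90, -0.11 and -0.06, with 0.56, -0.03 and 0.26 on 161517_at.

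Hsd3b7, an enzyme of bile acid synthesis, read 1981.7, 1905.6 and 1988.5 with vehicle and 1313.1 and 1295.7 with pioglitazone. It read 2414.8, 1983.3 and 1338.8 with rosiglitazone and 1137.2, 918.3 and 1505.1 with troglitazone. Pioglitazone and troglitazone arrays lay below all vehicle arrays, while rosiglitazone arrays lay on both sides of them. The log2 differences were -0.60 ± 0.27, -0.08 ± 0.23 and -0.75 ± 0.23 (SE; adjusted p = 0.473, 0.943 and 0.201). Hsd3b1, a steroid-making form, was dim and variable: 103072_at read 57.1, 225.5 and 176.6 with vehicle and was above the floor on 8 of 11 arrays, and 161261_f_at averaged 41.1 ± 50.4 (SD, n = 3) and was above it on 5.

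Hsd17b11, found on lipid droplets, read 1205.3, 853.9 and 997.1 with vehicle and 499.8, 252.5 and 814.7 with rosiglitazone. Troglitazone gave 556.2, 420.2 and 649, and pioglitazone 728.1 and 598.5. All 8 drug arrays lay below the vehicle arrays, with log2 differences of -0.43 ± 0.39, -1.11 ± 0.34 and -0.92 ± 0.34 for pioglitazone, rosiglitazone and troglitazone (SE; adjusted p = 0.805, 0.173 and 0.368). Hsd17b10, a mitochondrial enzyme of isoleucine breakdown, differed by 0.23, 0.52 and 0.05 (log2), each with overlapping groups.

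Genes that work beside these enzymes were read from 3 lists. Of genes for retinoid binding, storage and signalling, 15 of 27 were tested. Fabp5, a carrier of fatty acids and retinoic acid, rose 1.69-fold with pioglitazone (log2 0.76 ± 0.17 SE; limma adjusted p = 0.0446) and 1.67-fold with rosiglitazone (0.74 ± 0.14; 0.0169), and 0.56 ± 0.14 with troglitazone did not pass (0.0861). No other gene of that list passed in these comparisons, and its median was 0.24, 0.23 and -0.03 for pioglitazone, rosiglitazone and troglitazone. Of steroid synthesis and glucocorticoid signalling genes, 16 of 26 were tested and 0 passed, with medians of -0.23, -0.03 and 0.01.

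The list for glutathione and quinone detoxification also holds an epoxide enzyme, and 23 of its 25 genes were tested. Ephx2, the soluble epoxide hydrolase, rose 2.43-fold with pioglitazone (log2 1.28 ± 0.23 SE; limma adjusted p = 0.0130), 2.04-fold with rosiglitazone (1.03 ± 0.20; 0.0169) and 2.61-fold with troglitazone (1.38 ± 0.20; 0.00126). Gstm1, a glutathione transferase, fell with rosiglitazone (-0.99 ± 0.14; 0.00104) and troglitazone (-0.77 ± 0.14; 0.00674), and with pioglitazone -0.57 ± 0.16 did not pass (0.128). Medians of this list were -0.11, 0.02 and -0.22, and the other 21 genes did not pass, among them the quinone reductase Nqo1 (-0.89, 0.25 and -0.22).

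Troglitazone and pioglitazone were given at the same dose and time and are the 1 pair of drugs compared; rosiglitazone was given at another dose. They share the thiazolidinedione head group on an alkoxybenzyl linker and differ in the tail, the chroman of vitamin E in troglitazone and an ethylpyridine in pioglitazone. Between them 0 of 61 members passed in limma (of all 11739 probe sets 4 passed, 0.0341%, with 0.0256% higher and 0.00852% lower), and 2 members (3.28%) had an unadjusted p under 0.05, a lower share than the 6.35% of all probe sets. The difference, troglitazone minus pioglitazone, was -0.20 for Cbr3 (log2, 95% interval -0.57 to 0.17), -0.35 for Retsat (-0.80 to 0.09) and 0.03 for Akr7a5 (-0.37 to 0.42). The interval for Retsat still allows a level with troglitazone lower by 0.80 (log2), and the intervals are wide enough that the drugs are not shown to act alike. The smallest p-values belonged to Akr1b8 (-0.55, interval -1.01 to -0.08, adjusted p = 0.674), Dhrs4, a peroxisomal retinal reductase (-0.79, -1.54 to -0.05, 0.747), and Hsd11b2 on 100493_at (-0.96, -1.96 to 0.04, 0.811). Dhrs4 read 1056.6 and 992 with pioglitazone and 618.4, 577.3 and 773.6 with troglitazone, with no overlap. Over the 61 members the interval reached a median of 0.77 to each side of the difference.

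**Figure D4:**
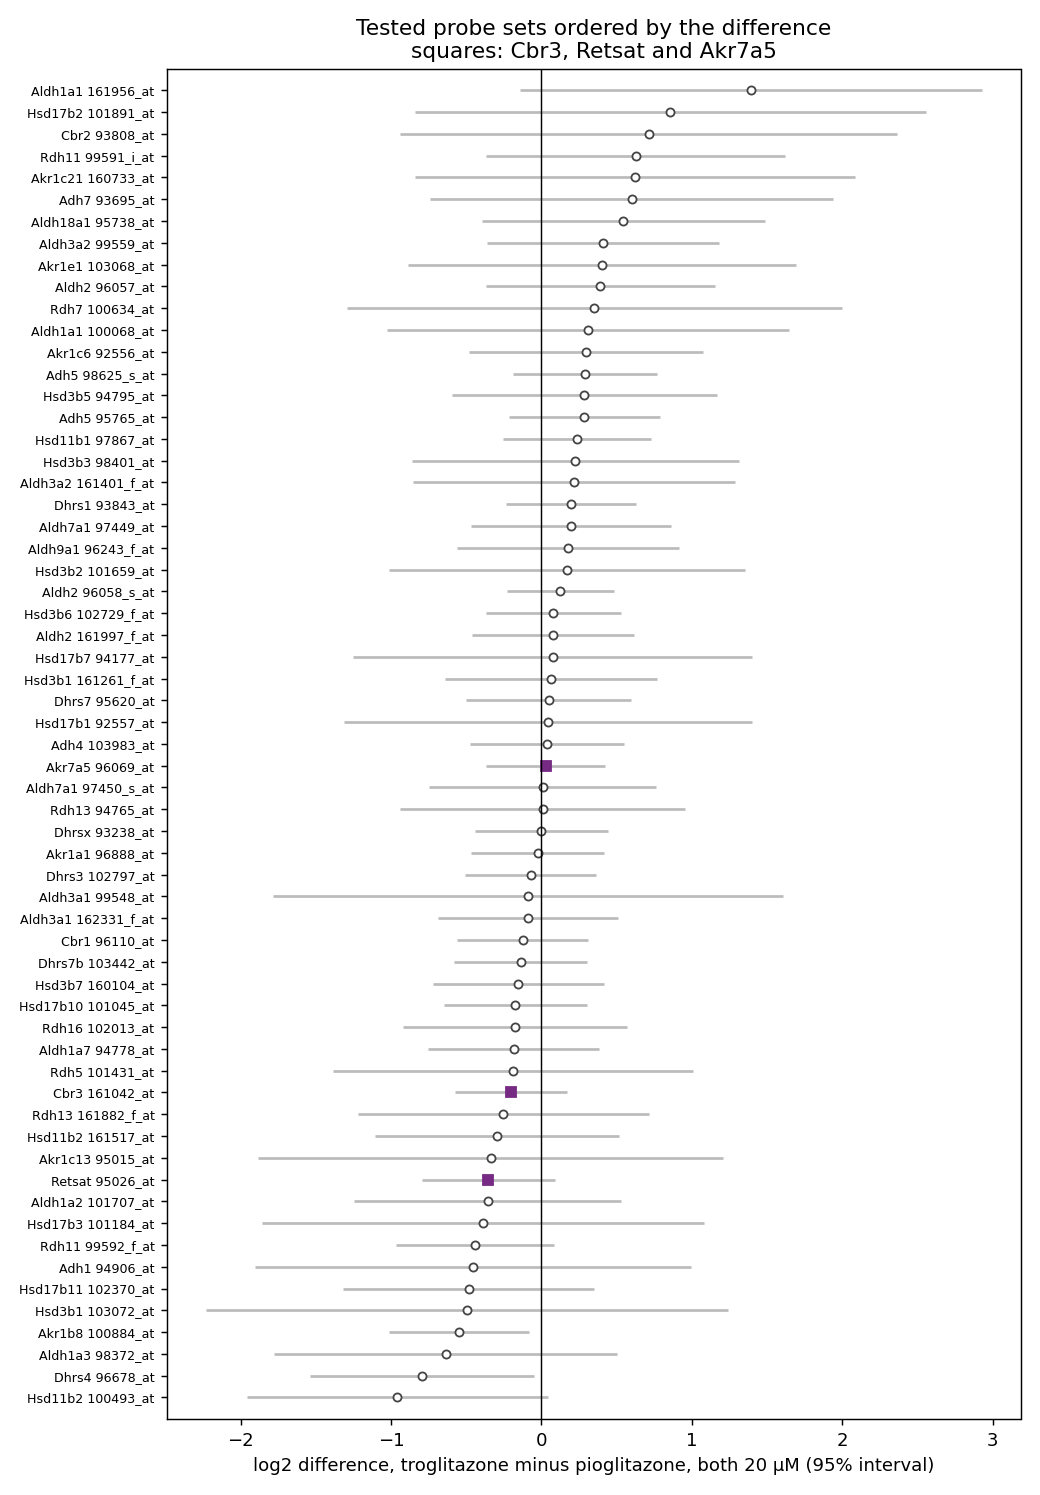
Troglitazone minus pioglitazone (log2, with 95% intervals) for the 61 tested member probe sets, in order of the difference; squares mark Cbr3, Retsat and Akr7a5. No member passed an adjusted p of 0.05, and the median interval reaches 0.77 to each side.

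Whether a drug effect differed between the sets was tested for rosiglitazone and troglitazone, with 1 array per group in set 2. In limma 0 of 61 members passed for either drug, as did 0 of all probe sets (percentage called, 0). At an unadjusted p under 0.05 there were 4 members for rosiglitazone, against 3.72% of all probe sets, and 1 for troglitazone, against 2.45%. For rosiglitazone these 4 were Adh5 on 95765_at (set 2 minus set 1, log2 1.04), Dhrs4 (1.41), Hsd3b3 (-1.91) and Rdh11 on 99591_i_at (-1.80), and for troglitazone the member was Akr1c6 (1.48).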

How the data were processed

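Total RNA of 11 samples was measured on 1 array each. The deposited intensities are linear and had been scaled by the authors before deposit: the mean after trimming 2% of values at each end was 500.289 to 500.433 on every array. The array software, the summary of probes into probe sets and the genome build are not stated in any source used here. Depth on arrays is signal over background, and the number of arrays limits the precision.

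Of 12488 probe sets, 66 controls were set aside. Gene names came from the platform annotation, in which 10833 probe sets have 1 gene, 396 have several and 1193 have none. Signals were floored at 73.7 and 11739 probe sets above it on at least 2 arrays were tested; 683 were not. limma 3.58.1 in R 4.3.3 fitted group and set to all 11 arrays with an intensity trend (6 residual degrees of freedom), two-sided, with Benjamini-Hochberg adjustment within each contrast. Fold changes come from that model, so they differ from ratios of mean signals and understate changes that reach the floor. Intervals have 95% confidence, are for single probe sets and are not adjusted. The scripts were tested on simulated data.

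Named were members that passed in any comparison, the 2 brightest genes of each family with vehicle, the 3 smallest p-values of each comparison, and the other probe sets of those genes; further members are named singly as not passing. In the neighbouring lists a gene is its brightest probe set, and up to 3 genes that passed are named; Nqo1 was added after its values were seen. The members and lists were chosen with earlier results of these data known. Alternatives were another normalization, floor, filter, model or choice of arrays, and replicate numbers as a block.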

Additional observations from a re-analysis of the deposited data

How the results depend on the processing

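With 24 alternatives, 13 of processing or model and 11 that each left out 1 array, none of the members that passed changed direction. The count of members that passed moved most without the set term (0 with pioglitazone, 0 with rosiglitazone and 1, Cbr3, with troglitazone), without the intensity trend (0, 0 and 0), in a fit of only the groups compared (0 with pioglitazone) and in set 1 alone (1 with rosiglitazone, Retsat). At an unadjusted p under 0.05 limma then gave 11, 11 and 11 members without the set term (all probe sets: 6.43%, 7.92% and 5.9%), 7, 8 and 9 without the trend (8.89%, 9.55% and 7.97%), and 10 with pioglitazone in the fit of only the groups compared (8.58%). Adjusted calls over all probe sets are not given for those fits, so a loss of calls particular to the members is not shown. Leaving out 1 array gave 2 to 3 members with rosiglitazone and 2 to 2 with troglitazone against vehicle. Over all probe sets the same fits gave 74 to 188 and 72 to 173. Without 1 of its 2 arrays pioglitazone has 1 left, so only effect sizes are given for it. Against vehicle these ran from 1.49 to 1.74 (log2) for Cbr3 and from 1.39 to 1.65 for Retsat over the 11 fits. Among the other results, the adjusted p of Akr7a5 with rosiglitazone ranged from 0.0149 to 0.268. The cause of these changes was not tested.

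With the replicate number as a block 2, 3, 2 and 0 members passed, and it changed no call of a member. The number of all probe sets that passed with that block is not given here. Deviations of same-numbered arrays from their group means correlated at -0.0989 to 0.362 over 15 pairs. The pairs of replicate 4, which is all of set 2, gave 0.289 to 0.362, so that range includes the difference between sets. Within set 1 the 6 pairs of replicate 1 gave -0.0444 to 0.00994. Of 11 arrays, 3 correlated best with their own number, so the numbers were not taken to pair the samples. Quantile normalization split all probe sets that passed with pioglitazone into 42 higher and 43 lower, and median centring into 123 and 18, against 74 and 32. Dim members limit what can be seen, since a fall that reaches the floor is understated and any change below the floor is lost.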
